A study of Mus musculus with 6 samples.

Results

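The receptors described here are 10 cell surface proteins best known from T cells: the CD28 family members Cd28, Ctla4, Icos and Pdcd1, the SLAM family members Slamf1, Ly9, Cd48 and Cd244a, and the scavenger receptor pair Cd5 and Cd6. Every probe set that names exactly 1 of these genes in the platform annotation was taken, which gave 10 probe sets for 9 genes out of 12488 probe sets on the array. Slamf1 was matched by none and dropped, and Cd6 was matched by 2. The set was chosen partly on earlier results of the same genotype comparison, the difference in Ctla4 signal among them. Their signals and differences are therefore a description, and no p is given for a single member. Where a member is said to be called at an adjusted p, that too is a description.

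Medullary thymic epithelial cells were compared between Aire-deficient mice, homozygous for a disrupted Aire (the autoimmune regulator, a transcription factor of these cells), and wild-type mice. Both groups were F2 animals of mixed B6/129 background, of both sexes and aged 3 to 5 weeks. There were 3 arrays per genotype. The RNA of each array came from the pooled thymi of 5 mice, so a level is an average over a pool. The cells were sorted as negative for CD45, the general blood cell marker, positive for the epithelial antibody G8.8, intermediate for CDR1 and high for B7.1. Their RNA went through 2 rounds of T7 amplification, which favours the 3' end of transcripts. B7.1 is the product of Cd80, a ligand of CD28 and CTLA4, so that the sort itself used a partner of the receptors and differences in Cd80 are not read as a finding.

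A T cell needs a second signal beside its antigen receptor, and the CD28 family supplies or withholds it. CD28 activates T cells on binding CD80 or CD86. CTLA4 competes for the same ligands and restrains the cell, while ICOS and PD-1 (Pdcd1) are an activating and an inhibitory relative with ligands of their own. SLAM receptors mostly bind copies of themselves on neighbouring cells and signal through the adaptor SAP, and CD48 instead serves as the ligand of CD244. CD5 damps signals of the antigen receptor in thymocytes, and CD6 binds ALCAM. In the thymic medulla, B7 molecules on epithelial cells engage CD28 on developing T cells.

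Ctla4 and Ly9 gave clearly brighter signals in the Aire-deficient cells, and Cd48 was also higher on each Aire-deficient array. Cd28 and Cd6 overlapped between the genotypes. The remaining probe sets lay at or near the lower end of the signal range. Signals are in arbitrary units after quantile normalization, which gives all arrays the same distribution. A floor of 1.8, the 20th percentile over all arrays, was applied before taking log2, and a probe set was tested if 3 or more arrays exceeded the dim limit of 5.53, which is the 40th percentile. Of the 10 receptor probe sets 5 passed that filter, and 4 of the other 5 stayed under the dim limit on every array. Group values are geometric means with SDs on the log2 scale, and differences are Aire-deficient minus wild type on the log2 scale with SEs from a limma fit over all tested probe sets. The small number of arrays limits their precision.

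**Figure D1:**
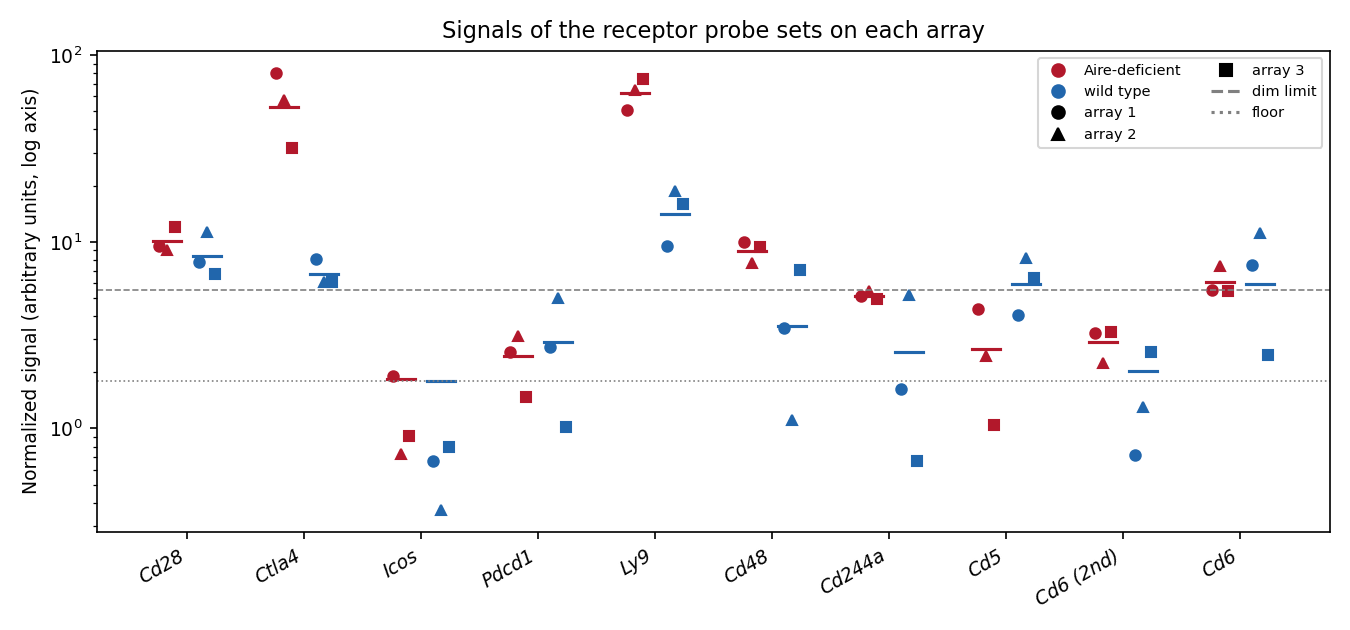
Normalized signal (log axis, arbitrary units) of the 10 receptor probe sets, with 3 Aire-deficient arrays (red) left of 3 wild-type arrays (blue), marker shape giving the array number and a bar the geometric mean after the floor. Ctla4 and Ly9 are separated by genotype with a wide gap, Cd48 by a narrow one, and Icos lies near or under the floor of 1.8 on all arrays.

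Ctla4, the inhibitory receptor of the CD28 family (probe set 97718_at), measured 80.5, 57.1 and 31.8 on Aire-deficient arrays 1 to 3, against 8.08, 6.06 and 6.1 on wild-type arrays 1 to 3. The lowest Aire-deficient array stood well above the highest wild-type array. The geometric mean was 52.7 (SD 0.68, n = 3) in Aire-deficient cells and 6.69 (SD 0.24, n = 3) in wild-type cells, a log2 difference of 2.98 ± 0.39 (SE) or 7.88-fold. Wild-type signals were only slightly above the dim limit. The 3 Aire-deficient arrays also differed among themselves, array 1 being brightest and array 3 dimmest. Within same-number arrays the log2 difference was 3.32, 3.24 and 2.38. As deposited, before any scaling, the signals were 77, 71.5 and 32.8 in Aire-deficient cells and 8.6, 6.4 and 5.6 in wild-type cells. Ranked within its own array, the Ctla4 probe set stood at percentiles 91.6, 88.2 and 80.1 of all probe sets in Aire-deficient cells and at percentiles 49.6, 42.4 and 42.5 in wild-type cells, and the groups were thus apart before normalization too. Among all 7768 tested probe sets its difference ranked 2 from the highest.

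The sequence before the start of Ctla4 is shown because this gene had the largest difference of the receptors, and that of Cd48 because its groups did not overlap either. Each line gives the 250 bases before the annotated start, 5′ to 3′ on the + strand of GRCm38.p6, from RefSeq. Capitals mark the core that NFAT factors bind, GGAAA on either strand (TTTCC where the match is on the opposite strand). The Ctla4 stretch is chr1:60908775-60909024 and the Cd48 stretch is chr1:171681742-171681991.
Ctla4: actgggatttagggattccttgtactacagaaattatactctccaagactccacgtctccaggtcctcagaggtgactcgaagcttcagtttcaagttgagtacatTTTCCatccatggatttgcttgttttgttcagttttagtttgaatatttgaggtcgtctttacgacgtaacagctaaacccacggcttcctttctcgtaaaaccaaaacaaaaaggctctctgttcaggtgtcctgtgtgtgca
Cd48: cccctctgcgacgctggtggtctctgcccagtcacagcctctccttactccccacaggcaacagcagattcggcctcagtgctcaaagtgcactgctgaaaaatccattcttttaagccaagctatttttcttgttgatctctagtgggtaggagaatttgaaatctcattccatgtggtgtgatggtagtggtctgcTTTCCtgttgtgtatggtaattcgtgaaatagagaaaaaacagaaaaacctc

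Windows of 300 bases, 250 before and 50 after the start, were available for 6 of the 10 genes. The NFAT core GGAAA had 1 match in the window of Ctla4 and 1 in that of Cd48, beginning at positions -144 and -52 from the start. The other available windows held it too, with 2 matches in Pdcd1, 1 in Slamf1, 2 in Cd244a and 1 in Cd5. Of 32841 windows 61.4% held it on at least 1 strand. The E box motif CANNTG had 2 matches in Ctla4, 1 in Cd48, 2 in Slamf1, 3 in Cd244a, 2 in Cd5 and 0 in Pdcd1. It was present in 72.3% of all windows. The letters TATAAA of a TATA box were found at position 41 after the annotated start of Ctla4 and not in the windows of Cd48, Cd244a, Pdcd1, Slamf1 or Cd5, against 13.6% of all windows. The AP-1 motif TGANTCA had 1 match, in Cd244a, and 7.81% of all windows held it. Both strands were searched for each motif. The window of Ctla4 was 42% G and C, and that of Cd48 47.3%, where the median of all windows was 52.7%.

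Ly9, a self-binding SLAM receptor of T and B cells (probe set 93194_at), measured 50.8, 64.9 and 74 on Aire-deficient arrays 1 to 3, against 9.47, 18.7 and 15.9 on wild-type arrays 1 to 3. Each Aire-deficient array was higher than each wild-type array. The geometric mean was 62.5 (SD 0.28, n = 3) in Aire-deficient cells and 14.1 (SD 0.51, n = 3) in wild-type cells, a log2 difference of 2.15 ± 0.35 (SE) or 4.43-fold. The same-number arrays differed by 2.42, 1.80 and 2.22 on the log2 scale. As deposited, Ly9 had signals of 48.2, 81.1 and 80.8 in Aire-deficient cells and 10, 18 and 14.5 in wild-type cells. In the ranking of each array Ly9 stood at percentiles 86.9 to 90.8 in Aire-deficient cells and at percentiles 53.6 to 69.9 in wild-type cells. After normalization Ly9 was brightest on Aire-deficient array 3, on which Ctla4 was dimmest in that group. As deposited, Ly9 was nearly equal on Aire-deficient arrays 2 and 3. Before and after normalization it was dimmest on Aire-deficient array 1, on which Ctla4 was brightest. The order of the 2 probe sets thus differed within the group, though this rests on 3 arrays.

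Cd48, the SLAM family ligand of CD244 (probe set 103089_at), measured 9.97, 7.73 and 9.38 on Aire-deficient arrays 1 to 3, against 3.43, 1.12 and 7.07 on wild-type arrays 1 to 3. The groups were separated by a narrow gap, between Aire-deficient array 2 and wild-type array 3. The geometric mean was 8.98 (SD 0.19, n = 3) in Aire-deficient cells and 3.52 (SD 0.99, n = 3) in wild-type cells, a log2 difference of 1.35 ± 0.58 (SE). Only 1 of the wild-type arrays exceeded the dim limit, so Cd48 passed the filter through its Aire-deficient arrays. Wild-type array 2, the dimmest for Cd48, also had the highest ratio of 3' to 5' signal among the 6 arrays. Without that array the difference was 0.87 ± 0.50. It was 0.58 ± 0.25 with the floor raised to the dim limit.

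Cd244a, the receptor that binds CD48 (probe set 95380_at), lay under the dim limit throughout. Its signals were 5.1, 5.43 and 4.93 in Aire-deficient cells and 1.63, 5.17 and 0.667 in wild-type cells. Wild-type array 2 fell within the range of the Aire-deficient arrays, so the groups overlapped. No fold is given between signals that are both dim.

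Cd28, the activating counterpart of Ctla4 (probe set 102237_at), measured 9.53, 9.07 and 12 in Aire-deficient cells and 7.83, 11.3 and 6.73 in wild-type cells. The groups overlapped, and the log2 difference of 0.26 ± 0.38 (SE) was smaller than its SE. Cd28 and Ctla4 are direct neighbours on chromosome 1 with 0 protein-coding genes between them in RefSeq. Icos, the next gene after Ctla4 (probe set 98282_at), measured 1.9, 0.733 and 0.917 in Aire-deficient cells and 0.667, 0.367 and 0.8 in wild-type cells. Only Aire-deficient array 1 reached above the floor for Icos. Pdcd1, the inhibitory receptor PD-1 (probe set 98836_at), lay under the dim limit on all arrays, at 2.58, 3.13 and 1.47 in Aire-deficient cells and 2.73, 5 and 1.02 in wild-type cells. Its groups overlapped.

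Cd5, which restrains antigen receptor signals in thymocytes (probe set 93637_at), was dimmer in Aire-deficient cells on 2 of the 3 same-number arrays. It measured 4.35, 2.45 and 1.05 in Aire-deficient cells and 4.07, 8.18 and 6.4 in wild-type cells, with an overlap at array 1. All Aire-deficient values of Cd5 and 1 wild-type value were under the dim limit, so it was not tested. Cd6, the receptor of ALCAM, had 2 probe sets, of which 1 was tested. That one (92204_at) measured 5.53, 7.38 and 5.44 in Aire-deficient cells and 7.53, 11.1 and 2.47 in wild-type cells, a log2 difference of 0.04 ± 0.60 (SE). The other (92203_s_at) was dim everywhere, at 3.25, 2.25 and 3.3 in Aire-deficient cells and 0.717, 1.3 and 2.58 in wild-type cells. Neither separated the genotypes.

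Of the 5 tested receptor probe sets, 3 (Ctla4, Ly9 and Cd48) had groups that did not overlap with Aire-deficient cells higher, where 10.4% of all tested probe sets did so. None of the 5 was without overlap and lower, where 10.1% of all tested probe sets were. Called at an adjusted p under 0.05 and higher were 2 of the 5, Ctla4 and Ly9, against 0.348% of all tested probe sets, and 0 were called lower, against 1.38%. The median log2 difference of the 5 was 1.35, beside 0.05 for all tested probe sets. Nothing is read from these counts or the median, since the genes were chosen with this comparison known and the filter let Cd48 in through the group where it was high. Over the whole array 107 probe sets were called lower and 27 higher in the limma fit. With the replicate number as a block these counts were 262 and 150, or 3.37% and 1.93%, and the same 2 receptors were called.

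**Figure D2:**
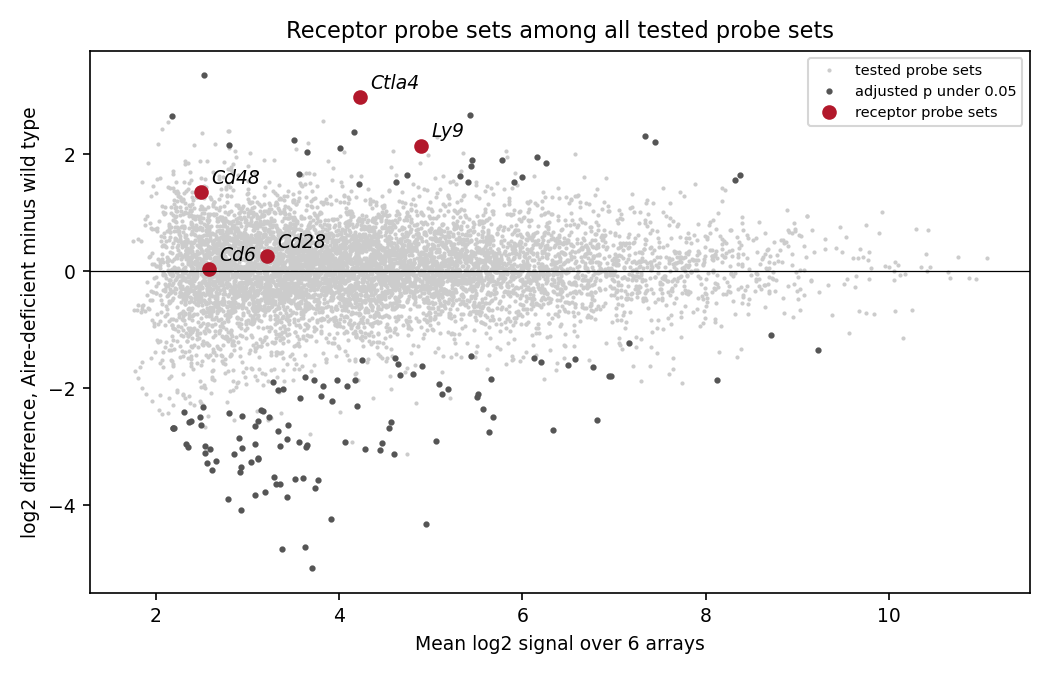
Log2 difference (Aire-deficient minus wild type) against mean log2 signal over the 6 arrays for 7768 tested probe sets (light grey), those at an adjusted p under 0.05 (dark grey) and the 5 tested receptor probe sets (red). Ctla4 at 2.98 and Ly9 at 2.15 lie along the upper edge of the cloud, whereas Cd28 and Cd6 lie near 0.

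The values for Ctla4 and Ly9 depended little on scaling. As deposited, the differences were 3.07 ± 0.40 for Ctla4 and 2.31 ± 0.38 for Ly9, with the median of all probe sets shifted by 0.13. With the beta-actin 3' to 5' ratio as a covariate they were 2.71 ± 0.39 and 2.48 ± 0.31 (SE). When single arrays were left out and the filter was applied anew, the Ctla4 call was lost without wild-type array 3 (difference 2.92 ± 0.45), and the Ly9 call was lost without Aire-deficient array 2 (2.10 ± 0.43), Aire-deficient array 3 (2.00 ± 0.42), wild-type array 1 (1.87 ± 0.35) or wild-type array 3 (2.24 ± 0.41). With the tested probe sets of the full fit kept, Ctla4 was called each time and Ly9 was lost without Aire-deficient arrays 2 and 3 and wild-type array 3.

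**Figure D3:**
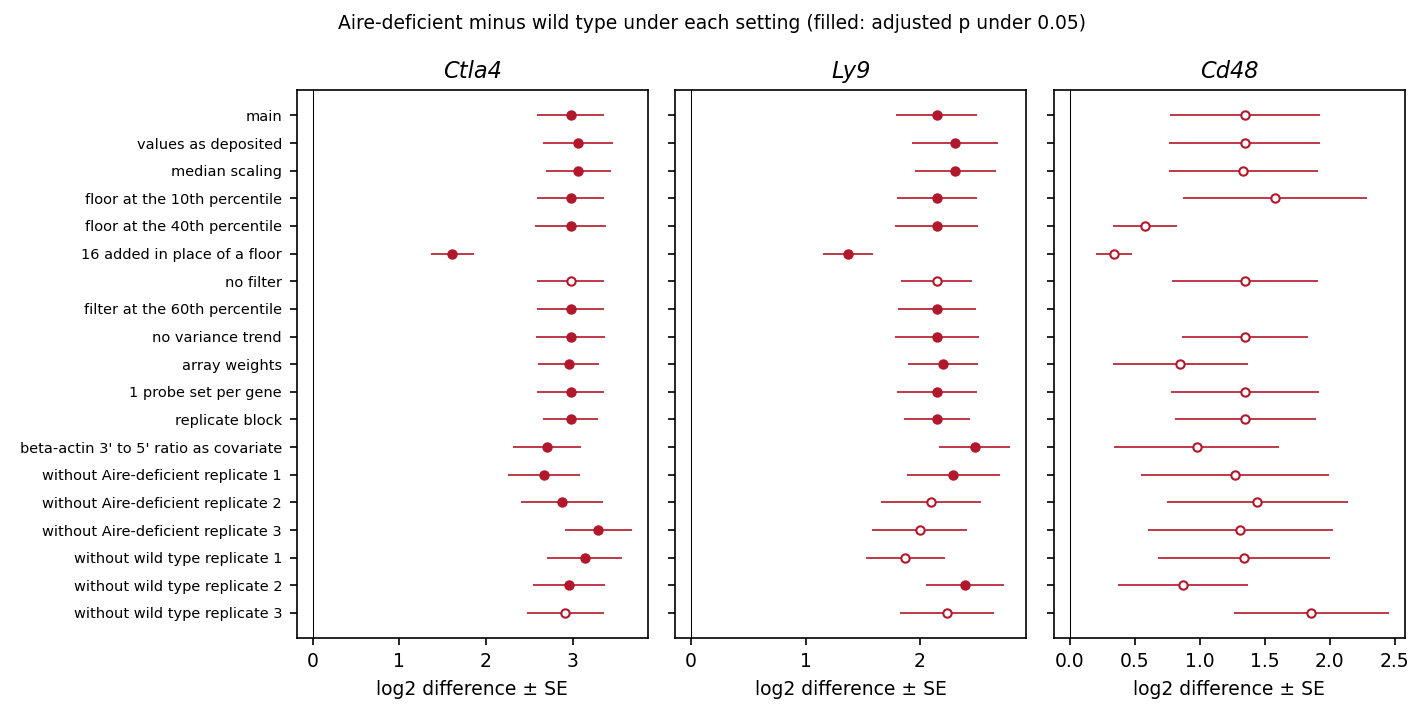
Log2 difference ± SE (Aire-deficient minus wild type) of Ctla4, Ly9 and Cd48 under the processing used here (top row, main) and each alternative, with filled points for an adjusted p under 0.05. All points lie above 0; with 16 added to each signal the differences shorten to 1.62, 1.37 and 0.34, and Cd48, filled in no row, has no point under the stricter filter.

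Aire itself has a single probe set, which was brighter in the Aire-deficient cells (202, 297 and 211, against 59.9, 96.4 and 138 in wild type). Where the probes lie relative to the disruption is not given, so this signal is no check of the genotype labels (adjusted p = 0.0918 in limma, or 0.0191 with the replicate block). Beta-actin, whose 3' to 5' signal ratio reflects RNA quality and amplification, had ratios of 4.38 to 13.4 on Aire-deficient arrays and 5.42 to 95.8 on wild-type arrays, with the highest value on wild-type array 2. Of 14 markers of medullary thymic epithelium 13 had a probe set and 11 were tested. In the limma fit 0 of the 11 were called at an adjusted p under 0.05, and 3 (Epcam, Krt18 and Ctss) had an unadjusted p under 0.05. Of all tested probe sets 1.73% and 14.3% passed at these levels. Epcam, the antigen of the sorting antibody G8.8, measured 102, 79.8 and 86.9 in Aire-deficient cells and 234, 251 and 131 in wild-type cells (adjusted p = 0.118 in limma, or 0.0315 with the replicate block). Krt18, a keratin of simple epithelia, measured 220, 193 and 126 in Aire-deficient cells and 134, 57.8 and 79.8 in wild-type cells, with overlap (adjusted p = 0.225). The medullary keratins Krt5 and Krt14 were under the dim limit on all arrays, while H2-Aa, Ctss, Fezf2 and Krt8 were bright. Summed over the 13 markers, the signal was 4533 to 4826 on Aire-deficient arrays and 3972 to 4070 on wild-type arrays, without overlap. H2-Aa, the brightest, measured 2331 on each Aire-deficient array and 2045, 1859 and 2045 on wild-type arrays.

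Ligands and partners of the receptors were looked at as a list of 9 genes, of which 5 had a probe set and 4 were tested. At an adjusted p under 0.05, 0 of them passed in limma, where 1.73% of all tested probe sets passed in either direction. On the brightest probe set of each gene, Cd86, the second B7 ligand of CD28 and CTLA4, was the one ligand at an unadjusted p under 0.05. It measured 28.6, 32.2 and 18.3 in Aire-deficient cells and 14.7, 8.62 and 11.6 in wild-type cells, without overlap (log2 difference 1.17 ± 0.36, adjusted p = 0.153). A second probe set of Cd86 lay under the dim limit on every array. Cd80, on which the cells were sorted, measured 12.5, 15.2 and 16.1 in Aire-deficient cells and 5.78, 15.8 and 7.32 in wild-type cells on one probe set. On the other, dimmer one Cd80 measured 8.8, 13.1 and 11.8 in Aire-deficient cells, against 3.52, 4.92 and 4.25 in wild type, without overlap. That probe set was also at an unadjusted p under 0.05 (log2 difference 1.40 ± 0.43, adjusted p = 0.152 in limma). Alcam, the ligand of CD6, had 58.2 in Aire-deficient cells and 42.4 in wild-type cells as geometric means (adjusted p = 0.691). Cdcp1, another binding partner of CD6, measured 87, 113 and 167 in Aire-deficient cells and 103, 72.4 and 156 in wild-type cells, with overlap (adjusted p = 0.88).

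Of 24 other costimulatory, inhibitory and SLAM family receptors 12 had a probe set and 8 were tested, and 0 passed in limma in either direction. The median log2 difference of the 8 was 0.31, and 6 of them lay above 0. Tnfrsf4, the costimulatory receptor OX40, measured 26.6, 41.5 and 32.4 in Aire-deficient cells and 8.64, 26.3 and 16.1 in wild-type cells. Its groups were barely separated (log2 difference 1.10 ± 0.42, adjusted p = 0.267), and it was the one gene of this list at an unadjusted p under 0.05. Tnfrsf9, the costimulatory receptor 4-1BB, had a geometric mean of 14.9 in Aire-deficient cells and 8.98 in wild-type cells (adjusted p = 0.485). Cd47, the widely expressed ligand of SIRP-alpha, had 471 in Aire-deficient cells and 579 in wild-type cells on its brighter probe set (adjusted p = 0.648). Cd2, which binds CD48 in mice, overlapped between the genotypes (5.79 in Aire-deficient cells and 4.82 in wild-type cells, adjusted p = 0.903).

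Signalling proteins that act below the receptors were a list of 21 genes, of which 18 had a probe set and 9 were tested. None of the 9 passed in limma, and 1 had an unadjusted p under 0.05. That gene was Inpp5d, which encodes the inositol phosphatase SHIP1: it measured 19.2, 23.5 and 25.4 in Aire-deficient cells and 9.97, 3.52 and 15.6 in wild-type cells (log2 difference 1.46 ± 0.50, adjusted p = 0.203). A second probe set of Inpp5d ran the other way, at 9.85, 11.7 and 8.85 in Aire-deficient cells and 13.6, 11.9 and 13.8 in wild-type cells (adjusted p = 0.665). Sh2d1a, which encodes the SLAM adaptor SAP, was under the dim limit on all arrays, as was Il2, the cytokine induced by CD28 signalling. Over the 3 lists 21 genes were tested, 0 passed after adjustment and 3 passed at an unadjusted p under 0.05, all higher. Of all tested probe sets 14.3% passed at that level in either direction, and 6.44% were higher. The count of 3 among 21 lies near the first of these shares.

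**Figure D4:**
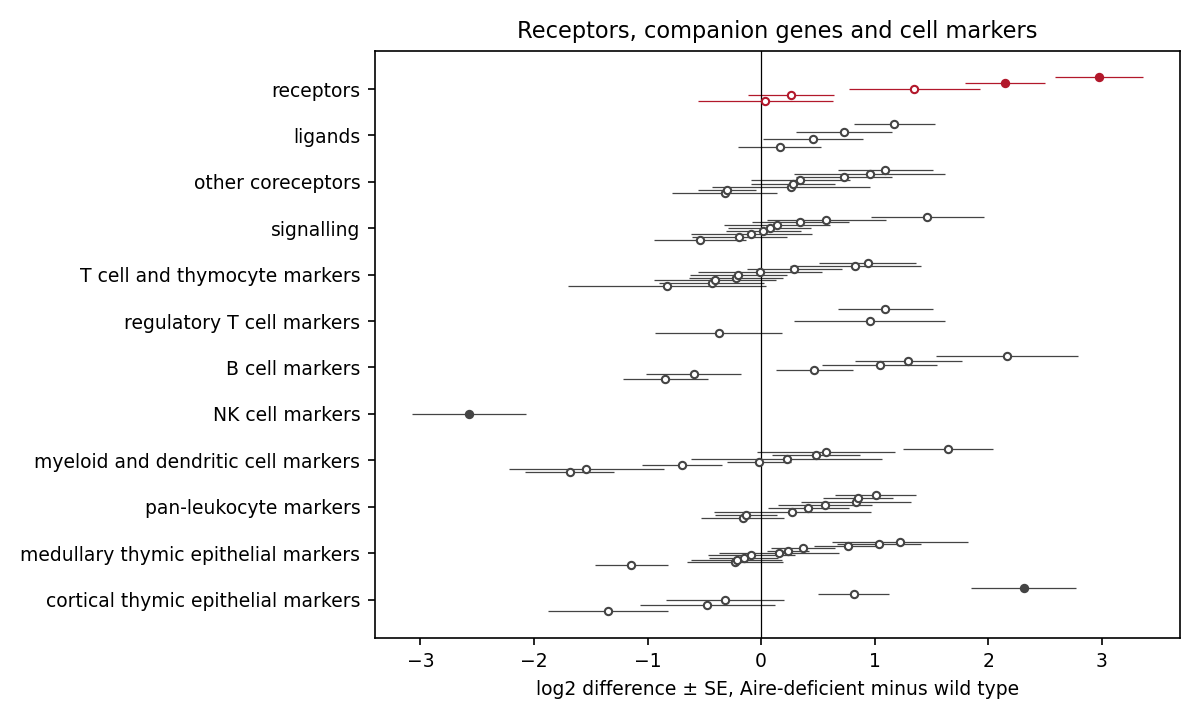
Log2 difference ± SE (Aire-deficient minus wild type) of tested genes in each list, 1 probe set per gene (receptors in red), with filled points for an adjusted p under 0.05. Ctla4 and Ly9 are the filled receptors; among the other lists the filled points are Gzmb of the NK cell list, at -2.57, and Ccl25 of the cortical epithelium list, at 2.31.

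Markers of T cells, in which the receptors are best known, gave dim to moderate signals in both genotypes, and no detection call was made. Of 17 T cell and thymocyte markers 14 had a probe set and 9 were tested, and 0 passed in limma in either direction, where 1.73% of all tested probe sets passed. None had an unadjusted p under 0.05, where 14.3% of all tested probe sets did, and counts of 0 among 9 genes lie near those shares. Rag1, a recombinase of antigen receptor genes, was higher on its brighter probe set, at 16.5, 13.8 and 28.9 in Aire-deficient cells and 13.6, 5.95 and 11.5 in wild-type cells, without overlap (log2 difference 0.94 ± 0.43, adjusted p = 0.351). A second probe set of Rag1 ran the other way, with 5.55 in Aire-deficient cells and 11.1 in wild-type cells as geometric means and with overlap (adjusted p = 0.532). Cd8b1, a chain of the CD8 coreceptor, measured 13.1, 9.73 and 14 in Aire-deficient cells and 2.55, 14.2 and 8.83 in wild-type cells (log2 difference 0.83 ± 0.58, adjusted p = 0.565). Dntt, the enzyme that adds bases to antigen receptor genes, measured 18.2, 21.8 and 48.1 in Aire-deficient cells and 22.4, 60.8 and 34.5 in wild-type cells on its brightest probe set. Thy1, a surface protein of thymocytes, measured 16.9, 10.3 and 38.5 in Aire-deficient cells and 12.5, 35.9 and 35.1 in wild-type cells. Dntt, Thy1 and Cd8b1 overlapped between the genotypes, and 3 of the 9 differences lay above 0. The CD3 chain Cd3e measured 1.57, 4.45 and 1.68 in Aire-deficient cells and 0.467, 2.21 and 1.02 in wild-type cells, under the dim limit throughout. The brighter of the Cd3d probe sets reached 0.8, 1.87 and 7.2 in Aire-deficient cells and 3.62, 1.12 and 6.73 in wild-type cells. Summed over the 14 markers, 1 probe set each, the signal was 102 to 192 on Aire-deficient arrays and 93.4 to 191 on wild-type arrays, ranges that nearly coincide. The part of T cells in the differences of Ctla4 and Ly9 was not tested beyond these values. Of these 14 genes, 3 (Cd3e, Rag2 and Ptcra) lay under the dim limit on every array. Fewer cells of a type and less RNA per cell cannot be told apart in sorted pools.

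Of 7 regulatory T cell markers, cells in which Ctla4 is known to be constitutively high, 3 were tested and 0 passed. Tnfrsf4 was higher by 1.10, as given above, and Tnfrsf18, the costimulatory receptor GITR, measured 6.2, 9.88 and 9.38 in Aire-deficient cells and 2.35, 13 and 2.58 in wild-type cells (log2 difference 0.96 ± 0.67, adjusted p = 0.567). Il2ra, a subunit of the interleukin 2 receptor, measured 5.93, 4.35 and 2.88 in Aire-deficient cells and 6.52, 6.59 and 3.77 in wild-type cells (log2 difference -0.37 ± 0.56, adjusted p = 0.815). The median difference of the 3 was 0.96. The summed signal of the 6 such markers with a probe set was 42.2 to 60.3 on Aire-deficient arrays and 20.5 to 52.6 on wild-type arrays, and Gpr83, Itgae and Ikzf2 were under the dim limit on every array. Foxp3, also on the list, had no probe set that named it alone.

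General leukocyte markers had more differences above 0 than below, and none passed the adjusted test, where 1.73% of all tested probe sets did. Of 10 such genes 8 were tested and 6 of the 8 differences lay above 0. Their median was 0.49, beside 0.05 for all tested probe sets. At an unadjusted p under 0.05, 14.3% of all tested probe sets passed in either direction and 6.44% were higher. Of the 8 genes 2 passed at that level, both higher. Those were Rac2, a GTPase of blood cells, and Cd52, a small surface glycoprotein of lymphocytes. Rac2 measured 224, 312 and 277 in Aire-deficient cells and 102, 188 and 172 in wild-type cells, without overlap (log2 difference 0.85 ± 0.31, adjusted p = 0.237). Cd52 measured 260, 274 and 152 in Aire-deficient cells and 81.4, 168 and 96.7 in wild-type cells, with overlap (log2 difference 1.01 ± 0.36, adjusted p = 0.225). Ptprc, which encodes CD45, measured 7.93, 7.83 and 10.3 in Aire-deficient cells and 5.15, 7.22 and 5.33 in wild-type cells on its brightest probe set (adjusted p = 0.586), and its other 2 probe sets were under the dim limit. Summed over the 10 genes the signal was 1100 to 1385 on Aire-deficient arrays and 876 to 1450 on wild-type arrays, and Laptm5, a lysosomal protein of blood cells, was the brightest of them. Without Laptm5, a step added after the data were seen, the other 9 genes summed to 546, 638 and 499 in Aire-deficient cells and 229, 409 and 327 in wild-type cells. These sums did not overlap and were higher in Aire-deficient cells. Rac2 and Cd52 were by far the brightest of the 9 genes and made up most of each sum. Laptm5 itself was not higher in Aire-deficient cells (log2 difference -0.14 ± 0.27 on its brighter probe set). The part of blood cells in the differences of the receptors was not tested.

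B cell markers, of which 6 were tested and 0 passed, differed in both directions. Of the 6 differences 4 lay above 0, and their median was 0.76. With the replicate block 2 were called higher and 0 lower, where 1.93% and 3.37% of all tested probe sets were. Pax5, the B cell transcription factor, measured 17.5, 10.2 and 13 in Aire-deficient cells and 7.93, 0.833 and 1.73 in wild-type cells (adjusted p = 0.13, or 0.0317 with the replicate block), and only 1 wild-type array exceeded the dim limit. Blk, a kinase of the B cell receptor, had 64.6 in Aire-deficient cells and 26.3 in wild-type cells as geometric means (adjusted p = 0.239, or 0.0249 with the block). A dimmer probe set of Blk was higher too, without overlap (log2 difference 1.00 ± 0.43, adjusted p = 0.323). Cd72 and Cd79b, also on the list, had log2 differences of 1.05 ± 0.51 and 0.47 ± 0.34 (adjusted p = 0.384 and 0.579). Fcer2a, the low affinity IgE receptor CD23, was lower, at 18.8, 42.6 and 29.5 in Aire-deficient cells and 39.2, 54.5 and 64.1 in wild-type cells (log2 difference -0.85 ± 0.37, adjusted p = 0.337). Ms4a1, which encodes CD20, was lower on both of its probe sets. The brighter one overlapped between the groups (9.37 in Aire-deficient cells and 14.1 in wild-type cells, adjusted p = 0.571), and the other measured 3.91, 4.82 and 2.78 in Aire-deficient cells and 9.47, 28.2 and 9.75 in wild-type cells (adjusted p = 0.116, or 0.0339 with the block). All Aire-deficient values of that second probe set were under the dim limit. The summed signal of the 9 B cell markers with a probe set was 146 to 190 on Aire-deficient arrays and 120 to 160 on wild-type arrays. Ly9 and Cd48 are also known from B cells.

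Of 8 tested myeloid and dendritic cell markers 0 passed in limma, and 3 had an unadjusted p under 0.05, beside 1.73% and 14.3% of all tested probe sets. Cd68, a lysosomal protein of macrophages, was higher (21.5 in Aire-deficient cells and 6.85 in wild-type cells, adjusted p = 0.067, or 0.0239 with the block). Cd14, the endotoxin coreceptor, was lower (45.9 in Aire-deficient cells and 147 in wild-type cells, adjusted p = 0.064, or 0.0055 with the block). Csf1r, the receptor of macrophage colony stimulating factor, measured 2.83, 14.6 and 28.9 in Aire-deficient cells and 25.6, 28.7 and 39.7 in wild-type cells, with overlap (log2 difference -1.54 ± 0.69, adjusted p = 0.341). The sums over the list were 239 to 333 in Aire-deficient cells and 328 to 443 in wild-type cells. Without Cd14 they were 221, 195 and 300 in Aire-deficient cells and 240, 236 and 236 in wild-type cells, and the groups overlapped.

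The single tested NK cell marker was Gzmb, the cytotoxic granule protease granzyme B, which fell (0.8, 1.67 and 2.88 in Aire-deficient cells, against 13.6, 10.7 and 13.6 in wild type, adjusted p = 0.0329). All Aire-deficient values were under the dim limit, so Gzmb passed the filter through its wild-type arrays alone, and its fold is at least 2.27. The NK sums, 4.33 to 22.9 on Aire-deficient arrays and 21.6 to 29.9 on wild-type arrays, rested on Gzmb. Without it the other 4 genes summed to 3.53, 10.8 and 20 in Aire-deficient cells and 9.55, 19.2 and 7.95 in wild-type cells, which overlapped.

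Genes next to the receptors on the chromosomes were compared to see whether whole regions moved with them. The 3 nearest genes with a probe set on each side of the Cd28, Ctla4 and Icos group, of Pdcd1, of the SLAM cluster and of the Cd5 and Cd6 pair made 24 neighbours, of which 19 were tested. In limma 0 of the 19 passed at an adjusted p under 0.05, and 1 passed at an unadjusted p under 0.05, beside 1.73% and 14.3% of all tested probe sets, and both counts lie below those shares. Groups did not overlap for 3 of the 19 (Nop58, Pex19 and Zp1), all lower in Aire-deficient cells, beside 10.1% of all tested probe sets. The gene at an unadjusted p under 0.05 was Zp1, an egg coat protein gene 5 genes beyond Cd6, which measured 1.35, 1.38 and 1.17 in Aire-deficient cells and 10.3, 7.38 and 7.62 in wild-type cells. Around Ctla4, Nop58 was at 0.653-fold, Ndufs1 at 1.33-fold, Eef1b2 at 0.901-fold and Adam23 at 2.29-fold of wild type, with Adam23 overlapping between the groups. In the SLAM cluster, Ly9 is next to Cd244a, and 1 gene lies between Ly9 and Cd48. Beside that cluster Itln1 was at 1.05-fold, F11r at 1.21-fold, Usf1 at 1.29-fold, Copa at 1.23-fold and Pex19 at 0.785-fold.

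**Figure D5:**
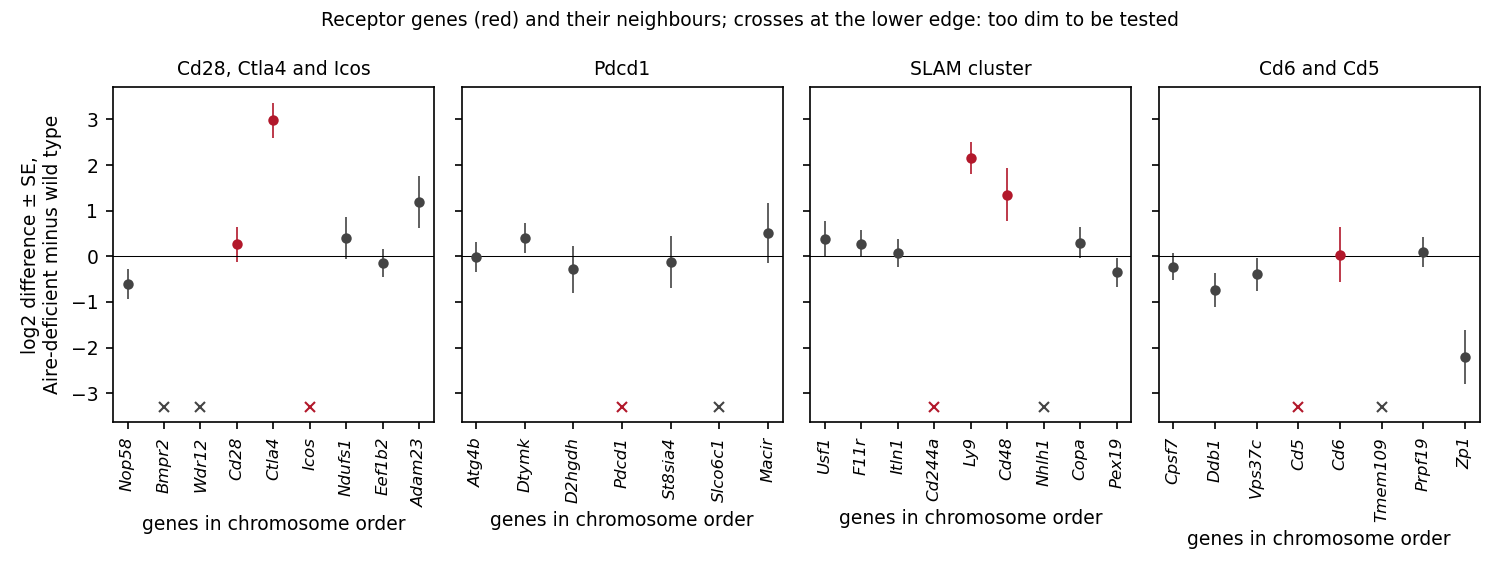
Log2 difference ± SE (Aire-deficient minus wild type) of the receptor genes (red) and their nearest neighbours on the array (grey), in chromosome order but not to scale, with crosses at the lower edge for genes too dim to be tested. Ctla4, Ly9 and Cd48 stand above their tested neighbours, and Zp1 is the lowest point.

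The genes whose pattern over the 6 arrays was most like that of Ctla4 were found by the root mean square difference of log2 signals after subtracting each probe set's own mean, among 6986 other tested probe sets of single genes. The closest was Maoa, a monoamine oxidase, at 0.35, with 168, 94 and 81 in Aire-deficient cells and 26.7, 10.9 and 16.8 in wild-type cells. Dctpp1, a nucleotide pyrophosphatase, followed at 0.38 and was under the dim limit on all wild-type arrays, as was Gria1, a glutamate receptor subunit, at 0.41. Il4, a cytokine of T helper cells, stood at 0.44, with 28.2, 29 and 18.4 in Aire-deficient cells and 5.43, 5.17 and 5.09 in wild-type cells, where it was under the dim limit on all arrays. Ccl25, a chemokine of thymic epithelium, came next at 0.55, with 511, 413 and 222 in Aire-deficient cells and 119, 35.9 and 88.9 in wild-type cells. Like Ctla4, Maoa, Gria1 and Ccl25 were brightest on Aire-deficient array 1 and dimmest on Aire-deficient array 3 within that group. Dctpp1 and Il4 were brightest on Aire-deficient array 2. All these genes were picked for their likeness over the same 6 arrays, so nothing is read from a shared difference or order. Ly9 ranked 33 in likeness to Ctla4, at 0.81.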

How the data were processed

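The authors deposited 1 linear signal intensity for each probe set on each of 6 arrays. Per the labels, pooled total RNA was amplified in 2 rounds with T7 polymerase; the sources used here give no software, background correction or scaling for the deposited intensity. After removal of 66 control probe sets, 12422 of 12488 remained, of which 10833 named 1 gene, 396 several and 1193 none; 10817 matched RefSeq (GRCm38.p6) by Entrez identifier. That assembly served for names, gene order and promoter sequences.

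Signals were quantile normalized, because 2% trimmed means ran from 19.7 to 27.2 before scaling, raised to the floor of 1.8 and log2 transformed. Probe sets above 5.53 on at least 3 arrays (7768) entered a linear model (limma 3.58.1 under R 4.3.3) with moderated variances that follow a trend in signal. P-values were 2-sided, adjusted by the Benjamini-Hochberg method across all 7768, with a threshold of 0.05. The fit was also run on simulated signals with known changes, drawn independently for each array. The simulation had no floor, no filter step and no link between same-numbered arrays, so it does not test those. Lists used the probe set with the highest mean signal per gene. Genes were named as all receptor probe sets, up to 4 genes per list (those called, then the brightest) besides those of a list at an unadjusted p under 0.05 and some markers or partners, chosen after their values were seen, the 3 nearest array genes on each side and the 5 genes most like Ctla4. The receptors and lists were chosen with earlier results of these data known. The spread behind a p-value is that between pools of mice, including amplification and hybridisation.

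Deviations from group means correlated at 0.37, 0.20 and 0.19 between same-numbered arrays and at -0.25 to 0.07 otherwise. Arrays of one number were therefore treated as pairs in the fit with the replicate block and in the same-number differences. This rests on the correlations, as the labels do not explain the numbers. The main fit had no block, so its SEs, adjusted p-values and calls leave the pairing out. The fit was repeated with other scalings, floors and filters, without the variance trend, with array weights, 1 probe set per gene, the block and a 3' bias covariate, and leaving out each array, the last also with the 6-array filter kept (added after the data were seen). Figures were drawn with matplotlib 3.10.9.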

Additional observations from a re-analysis of the deposited data

How the results depend on the processing

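Ctla4, Ly9, Cd48 and Cd28 were higher in Aire-deficient cells under every alternative that gave a value. Ctla4 ranged from 1.62, with 16 added in place of a floor, to 3.30, and it was called in 22 of 24 alternatives. Ly9 was called in 16 of 24, and Cd48 in 0 of 23. These totals count each left-out array under both filters, so the alternatives are not independent. Nothing is read from the calls, since the receptors were chosen with this comparison known. Neither Ctla4 nor Ly9 was called without a filter on dim probe sets (0 receptors called, with 10 probe sets lower and 6 higher over the array). The Cd6 difference changed sign under 6 of 22 alternatives. Leaving out 1 array at a time gave Ctla4 differences of 2.67 to 3.30, 0 to 2 receptors called, 2 to 76 probe sets lower and 0 to 9 higher; with the 6-array filter kept these were 1 to 2, 25 to 78 and 2 to 16. Probe sets called lower and higher were 107 and 27 (79.9% lower), 102 and 71 (59% lower) on the values as deposited, 97 and 55 (63.8% lower) after median scaling, and 166 and 72 with array weights. With 16 added, 57 were higher. The replicate block gave 262 and 150, which included all 134 calls made without it; the block changed no call of a receptor or companion gene. No companion gene was called under any alternative run. The cause of these changes was not tested. Dim signals limit what can be said of Icos, Pdcd1, Cd244a, Cd5 and 1 probe set of Cd6.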

Other observations

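The genes most like Ly9 over the 6 arrays were listed by the same measure as for Ctla4, a step added after the data were seen. They were Neurod4 at 0.34, 1300017J02Rik at 0.35, Pitpnc1 at 0.36, Tcf25 at 0.36 and Nsmce1 at 0.41. Pitpnc1, a phosphatidylinositol transfer protein, measured 131, 150 and 142 in Aire-deficient cells and 27, 31.5 and 57.2 in wild-type cells. Nsmce1, a subunit of the SMC5/6 complex, measured 280, 354 and 393 in Aire-deficient cells and 78.3, 169 and 174 in wild-type cells. Neurod4, a neural transcription factor, was under the dim limit on all wild-type arrays. None of the 5 genes was among the 5 most like Ctla4.

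The antigen presentation genes that mark these cells were bright on all arrays. Ctss, the cathepsin that processes the class II invariant chain, measured 1079, 740 and 985 in Aire-deficient cells and 682, 358 and 658 in wild-type cells, without overlap (adjusted p = 0.271 in limma). Of 8 cortical epithelium markers 5 were tested and 1, Ccl25, passed, where 1.73% of all tested probe sets did. Of the 5 differences 2 lay above 0 and the median was -0.31. Ly75, an endocytic receptor also found on dendritic cells, measured 78.1, 61.8 and 61.7 in Aire-deficient cells and 49.7, 31.1 and 35.4 in wild-type cells (adjusted p = 0.265). Ccl25 rose (log2 difference 2.31 ± 0.46, adjusted p = 0.0345). The other 3 had lower means in Aire-deficient cells. Cxcl12, a chemokine, measured 6.77, 4.07 and 3.38 in Aire-deficient cells and 15.9, 16.9 and 5.75 in wild-type cells (log2 difference -1.35 ± 0.53, adjusted p = 0.275). Ctsl, the protease cathepsin L, differed by -0.47 ± 0.59 (adjusted p = 0.776) and Enpep, an aminopeptidase, by -0.31 ± 0.52 (adjusted p = 0.835) on the log2 scale. A second probe set of Enpep measured 2.47, 6.53 and 3.52 in Aire-deficient cells and 16.4, 11.7 and 15.4 in wild-type cells, without overlap (log2 difference -1.90 ± 0.47, adjusted p = 0.0745, or 0.0407 with the replicate block).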
